A study of Ovis aries with 16 samples.

Results

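IRF1, IRF3, MX2 and PSMB8 are 4 genes of the interferon response, and their expression was followed over 16 arrays of fetal sheep hippocampus. Every probe whose annotation on the array names 1 of these genes was taken, which gave 4 of the 896 genes named on the array and 5 of its 15008 probes: 1 for IRF1, 2 for IRF3, 1 for MX2 and 1 for PSMB8 (LMP7). Each array held the hippocampus of 1 late-gestation fetus carrying catheters, on a 1-color Agilent ovine array, and the tissue was collected 24 h after the onset of a 30 min stimulus to the ewe. The stimulus was normoxia in the normoxia control group (NC, 3 fetuses) and in the normoxia plus ketamine group (NK, 4 fetuses), and low-oxygen ventilation in the hypoxia control group (HC, 5 fetuses) and in the hypoxia plus ketamine group (HK, 4 fetuses). The NK and HK fetuses had received ketamine, an anesthetic that blocks NMDA receptors, at 3 mg/kg iv before the stimulus, and all fetuses recovered in normoxia for 23.5 h. An array is named below by its group and replicate number, so HC4 is the fourth hypoxia control. The methods describe most fetuses as twins, the labels do not tie fetuses to ewes, and hypoxia was given to whole pregnancies. Fetuses of 1 group may therefore share a ewe, and so may fetuses of NC and NK, or of HC and HK. The main comparisons treat all fetuses as unrelated.

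Interferons are secreted proteins that put cells into an antiviral and antigen-presenting state. IRF3 is a transcription factor that lies ready in the cytoplasm and is switched on by phosphorylation when sensors such as toll-like receptors detect microbial or damage signals, after which it drives type I interferon genes. IRF1 is a transcription factor whose own gene is induced by interferons and other inflammatory signals. MX2 encodes a dynamin-like GTPase with antiviral activity that is induced by type I interferon. PSMB8 encodes a catalytic subunit that replaces a constitutive subunit in the immunoproteasome, the form that cuts peptides for class I antigen presentation. In the brain, microglia, astrocytes and endothelial cells can all mount this response.

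The probes are 60 bases long, and the sequences that fix what each one reads are printed here as the array annotation gives them, 5′ to 3′. The IRF1 and PSMB8 probes are shown whole, the stretch of 30 bases lies within the part that both IRF3 probes share, and for MX2 the last 30 bases are shown with the hexamer AATAAA, the form of a polyadenylation signal, in capitals.
IRF1: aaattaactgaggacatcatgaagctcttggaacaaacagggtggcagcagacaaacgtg
IRF3: ttaaggctgtttatccgcccgtgcaagcca
MX2: tataaacttcatattctAATAAAtcacttc
PSMB8: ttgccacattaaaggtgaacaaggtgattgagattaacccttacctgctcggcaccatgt
The IRF3 probes overlap by 37 bases of the same transcript fragment, so they are not independent measurements, and their Pearson r over the 16 arrays was 0.94. Apart from that overlap, no other probe on the array shared a run of 20 bases with a member. In the RefSeq gene order of the sheep assembly ARS-UI_Ramb_v3.0, MX2 lies next to MX1, and PSMB8 lies between TAP2 and TAP1, the peptide transporter genes. The array files give no genome position for the probes.

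The values are normalized log2 intensities, where 0 is the 75th percentile of the array, and a difference of 1 is a doubling of the intensity. Every member probe was well above background on all 16 arrays and saturated on none. All 5 hippocampal neuron genes tested, GRIN1, GRIA1, SST, NEUROD1 and NPY, were well above background on all 16 arrays. A probe is said to pass the criterion at an unadjusted p under 0.05 in limma, the level the study used, and it is called higher, lower, raised or upregulated in a comparison only then. The Benjamini-Hochberg adjusted p over the 12543 probes tested is given beside it. No member reached an adjusted p under 0.05 in any comparison.

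**Figure D1:**
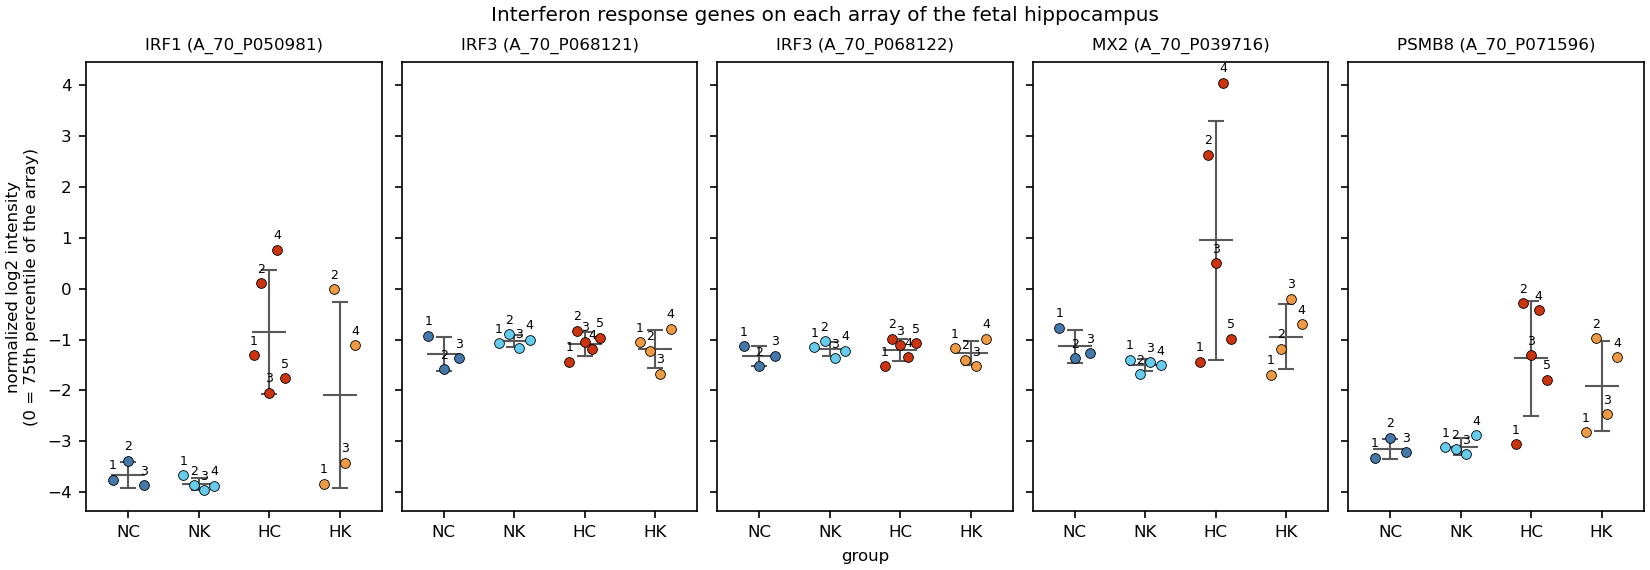
Normalized log2 intensity (vertical axis, 0 is the 75th percentile of the array) of the 5 member probes in the 4 groups. Each point is 1 array with its replicate number, and the bars are the group mean ± SD. IRF1, MX2 and PSMB8 spread widely over the HC and HK arrays and lie close together over the NC and NK arrays, and the IRF3 probes overlap in all groups.

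IRF1 transcripts were upregulated 24 h after hypoxia. The NC arrays read -3.75, -3.38 and -3.86 for replicates 1 to 3, and the NK arrays -3.67, -3.86, -3.96 and -3.87. The HC arrays read -1.31, 0.10, -2.05, 0.77 and -1.76, and the HK arrays -3.83, -0.02, -3.42 and -1.12. All 5 HC arrays lay above all 7 normoxia arrays, whereas HK split into 2 arrays above the normoxia range (HK2 and HK4) and 2 within it (HK1 and HK3). In background-subtracted intensity, not scaled between arrays, this was 61.9 to 98.5 over the normoxia arrays, 256.6 to 1836 in HC and 81.4 to 953.4 in HK.

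In HC-NC, the comparison of hypoxia with normoxia without ketamine, IRF1 was 2.81 ± 0.78 (SE) higher on the log2 scale, a 7.03-fold difference (95% confidence interval 1.14 to 4.49, adjusted p = 0.198). The exact permutation test, two-sided, gave p = 0.0179, the smallest value that 3 arrays against 5 allow, and 0.0714 on the deposited values. The difference was 2.96 within the first slide and 2.85 within the second, and it passed the criterion under all 28 alternatives run, although the authors' deposited values put it at 1.33. With ketamine in both arms, HK-NK, IRF1 was 1.75 ± 0.76 higher (adjusted p = 0.938), with 1.84 and 1.65 within the slides and an exact permutation p of 0.0571. That call was lost without any of NK1, NK2, NK3, NK4, HK2 or HK4, and with normexp, the deposited values, array weights or only the compared groups in the fit. Without HK2 the difference was 1.05.

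IRF1 did not pass the criterion in the main contrasts of ketamine, fitted on every array with no replicate block and no array weights. In HK-HC, ketamine against none under hypoxia, IRF1 read -1.25 ± 0.72 with an interval from -2.79 to 0.30 (adjusted p = 0.969). It read -1.94 and passed without HK2, and it read -1.93 and passed with array weights. It read -0.67 without HK1 and -0.80 without HK3. In NK-NC, ketamine against none under normoxia, the difference was -0.18 with an interval from -1.93 to 1.58. The HC arrays enter both HC-NC and HK-HC, so these differences are not independent.

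MX2 transcripts differed most between fetuses, and both the highest and the lowest value were those of hypoxia arrays. The NC arrays read -0.76, -1.37 and -1.27, and the NK arrays -1.40, -1.68, -1.44 and -1.51. The HC arrays read -1.43, 2.63, 0.50, 4.04 and -0.98, and the HK arrays -1.69, -1.18, -0.20 and -0.70. HC2, HC3 and HC4 lay above the normoxia range and HC1 and HC5 within it. In HK the values of HK3 and HK4 lay just above the range, HK2 lay within it and HK1 just under it. In intensity, not scaled between arrays, HC ran from 439.5 to 17810, HK from 358.2 to 876.3 and the normoxia arrays from 318.8 to 639.9. HC4 stood 41.9-fold above the mean of the normoxia arrays, HC2 15.7-fold and HC3 3.6-fold.

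MX2 was 2.09 ± 0.94 higher in HC-NC, a 4.25-fold difference that passed the criterion narrowly (95% confidence interval 0.07 to 4.11, adjusted p = 0.443). The groups overlapped and the exact permutation test gave p = 0.232. The difference was 1.67 and 2.46 within the slides. The call was lost without any of NC1, NC2, NC3, NK1, NK2, NK3, NK4, HC2, HC4, HK2 or HK4, and with the deposited values, the slide as a block or only the compared groups in the fit. Without HC4 the difference was 1.31. In HK-HC, MX2 was lower by 1.89 ± 0.87 on the log2 scale, at -1.89 with an interval from -3.75 to -0.04 (adjusted p = 0.969, exact permutation p = 0.198), and -2.03 and -1.64 within the slides. This call held in 3 of the 16 fits that left out an array (those without HC1, HC5 or HK3), and without HC4 the difference was -1.12. It was lost with the same 3 alternatives as in HC-NC. The 5 HC arrays enter both comparisons in which MX2 passed. In HK-NK the difference was 0.56 ± 0.91 with an interval from -1.39 to 2.52.

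All 4 NK arrays read MX2 lower than all 3 NC arrays, by 0.37 on average, with an exact permutation p of 0.0286, the smallest that 4 arrays against 3 allow. Among the probes tested, 2.17% were lower in NK without overlap. In limma, whose spread is shared with the hypoxia arrays, the NK-NC difference of -0.37 ± 0.99 did not pass, and the exact permutation p rose above 0.05 under each of the 4 other scalings run (0.0571 to 0.543).

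PSMB8 transcripts were upregulated after hypoxia with and without ketamine. The NC arrays read -3.32, -2.93 and -3.21, and the NK arrays -3.12, -3.15, -3.25 and -2.88. The HC arrays read -3.05, -0.28, -1.31, -0.43 and -1.79, and the HK arrays -2.82, -0.98, -2.47 and -1.34. All 4 HK arrays and 4 of the 5 HC arrays lay above every normoxia array, HK1 by little, and HC1 lay within the normoxia range. In intensity, not scaled between arrays, the normoxia arrays ran from 97.6 to 134.6, HC from 142.9 to 986.0 and HK from 163.4 to 488.5. The 142.9 is HC1, on an array whose 75th percentile was 1186, against 1025 for NC2, which read 134.6. HC1 therefore stands above NC2 in intensity but below it in the normalized values.

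PSMB8 was 1.78 ± 0.54 higher in HC-NC, a 3.44-fold difference (95% confidence interval 0.63 to 2.93, adjusted p = 0.223), with 1.46 and 2.03 within the slides and an exact permutation p of 0.0714. It passed the criterion under all 28 alternatives run, although the deposited values put it at 0.77. In HK-NK it was 1.20 ± 0.52 higher, a 2.29-fold difference without overlap (adjusted p = 0.938, exact permutation p = 0.0286), with 1.23 and 1.16 within the slides. That call was lost without any of NK1, NK2, NK3, HK2 or HK4, and with normexp (0.68) or the deposited values (0.48). In HK-HC the difference was -0.53 ± 0.49 with an interval from -1.59 to 0.53, and over the fits without 1 array it ran from -0.95 (without HC1, where it passed) to -0.23 (without HK1), and it read -0.84 without HK2, -0.34 without HK3, -0.26 without HC2 and -0.30 without HC4. In NK-NC it was 0.05 with an interval from -1.15 to 1.26.

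IRF3 did not pass the criterion in any comparison by either probe. On the first probe (A_70_P068121) the NC arrays read -0.92, -1.58 and -1.37, the NK arrays -1.07, -0.89, -1.18 and -1.01, the HC arrays -1.44, -0.83, -1.04, -1.19 and -0.96, and the HK arrays -1.05, -1.22, -1.68 and -0.79. All 4 groups overlapped. HC-NC was 0.20 ± 0.19 (interval -0.22 to 0.62) on this probe and 0.12 ± 0.15 (interval -0.21 to 0.44) on the second (A_70_P068122). HK-HC was -0.09 ± 0.18 with an interval from -0.47 to 0.29, and -0.06 ± 0.14 on the second probe. The intervals leave room for a change of the IRF3 transcript of up to about 0.62 in HC-NC, and the array measures the transcript, not the phosphorylated protein. A further probe (A_70_P050746) that the annotation ties to the same transcript cluster without naming IRF3 was kept apart from the members, and its HC-NC difference was 0.43 ± 0.20, past the criterion (adjusted p = 0.446).

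Counted over the 5 member probes, 3 passed the criterion in HC-NC, all higher, where 4.54% of all probes tested passed as higher. Without overlap of the groups, IRF1 alone was higher in HC-NC, against 2.89% of all probes tested. In HK-NK 2 of 5 passed, both higher (IRF1 and PSMB8), against 2.81% of all probes, and PSMB8 alone was higher without overlap, against 1.87%. In HK-HC 1 of 5 passed, lower (MX2), against 1.87% of all probes. In NK-NC none of the 5 passed, where 0.710% of all probes passed as higher and 1.07% as lower.

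Averaged over the ketamine arms, IRF1 was 2.28 ± 0.54 higher after hypoxia (adjusted p = 0.117) and PSMB8 1.49 ± 0.37 higher (adjusted p = 0.132). These were 2 of the 5 member probes, against 5.69% of all probes tested that passed as higher in that contrast. Both passed under every alternative run, including each fit that left out 1 array, and by size of the p they stood 95th and 127th among the 12543 probes. MX2 read 1.33 ± 0.66 and did not pass (adjusted p = 0.429), though it passed without HC1 (1.62) or HC5 (1.57), with normexp (1.28) and with array weights (1.68). The test of the difference between the hypoxia effects with and without ketamine, the interaction, passed for none of the 5 member probes, where 2.45% of all probes passed as positive and 0.989% as negative. The interaction was -1.07 (interval -3.40 to 1.27) for IRF1, -1.52 (interval -4.33 to 1.28) for MX2 and -0.58 (interval -2.19 to 1.02) for PSMB8. Leaving out 1 array moved it between -0.49 (without HK1) and -1.76 (without HK2) for IRF1, between -0.75 (without HC4) and -2.12 (without HC1) for MX2, and between -0.28 (without HK1) and -1.01 (without HC1) for PSMB8, and none passed in these fits.

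**Figure D2:**
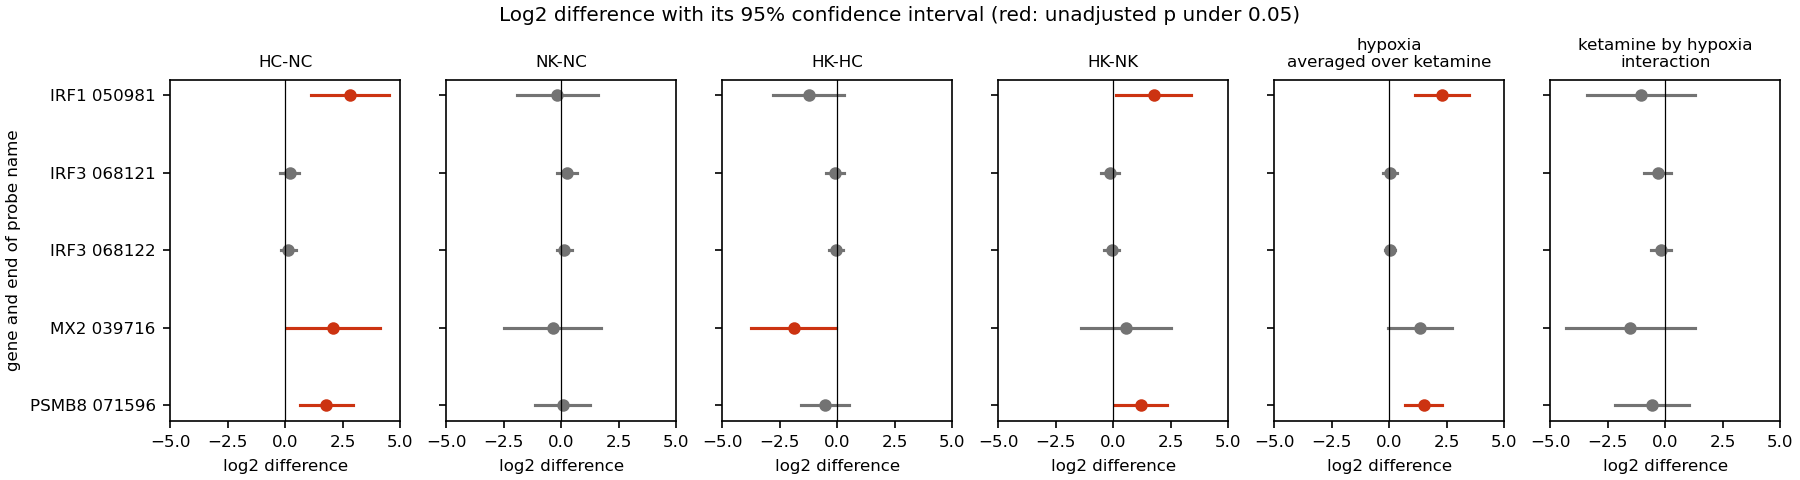
Log2 difference (horizontal axis) of each member probe in the 6 comparisons of the limma fit, with its 95% confidence interval as a bar, red where the unadjusted p was under 0.05. IRF1 and PSMB8 are red in HC-NC, HK-NK and hypoxia averaged over ketamine, MX2 in HC-NC and HK-HC, and the IRF3 intervals are short and cross 0 throughout.

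The spread between fetuses was itself larger after hypoxia for 3 of the 4 genes. The SD of the deviations from group means was 1.51 in the hypoxia groups and 0.19 in the normoxia groups for IRF1, 1.82 and 0.23 for MX2, and 1.03 and 0.18 for PSMB8. The ratio of these SDs was 8.17 for IRF1, 8.02 for MX2 and 5.82 for PSMB8, against 1.30 and 1.41 for the IRF3 probes and a median of 1.21 over all probes tested. This ratio is given as a description, with no test. The limma fit shares 1 spread over all groups, so the normoxia contrasts of these 3 genes carry wider errors than the normoxia arrays alone would give.

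The 3 responding genes did not mark the same arrays. HC2 and HC4 were high for all of them, with IRF1 14.6-fold and 23.1-fold, MX2 15.7-fold and 41.9-fold and PSMB8 7.16-fold and 6.48-fold above the normoxia mean. HC1 was 5.47-fold above it for IRF1, while its MX2 and PSMB8 values lay within the normoxia range. HK2 was 13.5-fold above it for IRF1 and 4.42-fold for PSMB8, with MX2 within the range at 1.12-fold. HK3 showed the other order, with MX2 2.22-fold and PSMB8 1.57-fold above the normoxia mean and IRF1 within the range at 1.27-fold.

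Over the 16 arrays, IRF1 and PSMB8 had the closest relation of the 6 gene pairs. Their Pearson r was 0.90 (permutation p = 3.0e-05, adjusted over the 6 pairs 0.00018) and their Spearman rho 0.79 (permutation p = 0.0004, adjusted 0.0024). Without HC2 and HC4, the arrays farthest from the median of IRF1, r was 0.82. MX2 and PSMB8 had r = 0.78 (permutation p = 0.00022, adjusted 0.00066) and rho = 0.61 (p = 0.0129 by permutation, adjusted 0.0258), and r fell to 0.56 without HC2 and HC4. IRF1 and MX2 had r = 0.71 (permutation p = 0.00217, adjusted 0.00434) and rho = 0.72 (permutation p = 0.00196, adjusted 0.00588), but without HC2 and HC4 r was 0.29 and rho 0.58, so that the Pearson r rested on those arrays. The pairs with IRF3 had r of 0.15 with IRF1, 0.12 with MX2 and 0.28 with PSMB8, with permutation p between 0.298 and 0.673 and rho between 0.01 and 0.13.

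A relation over all arrays holds the difference between the groups, and the 7 normoxia arrays lie together at low values of IRF1 and PSMB8, so the pairs were also compared within groups. As deviations from the group means, r was 0.77 for IRF1 and PSMB8 (permutation within groups p = 0.0285, adjusted 0.144, rho = 0.85 with p = 0.0123, adjusted 0.074), 0.72 for MX2 and PSMB8 (p = 0.0479 by permutation, adjusted 0.144, rho = 0.45 with p = 0.199) and 0.51 for IRF1 and MX2 (permutation p = 0.106, rho = 0.44). None passed after adjustment over the 6 pairs. The pairs were also taken over the hypoxia arrays, HC and HK together, and over the normoxia arrays, NC and NK together. Group means were not removed there, so the difference between the ketamine arms enters r and its p. Within the 9 hypoxia arrays alone, r was 0.79 for IRF1 and PSMB8 (exact permutation p = 0.0121, adjusted 0.0498), 0.75 for MX2 and PSMB8 (exact permutation p = 0.0166, adjusted 0.0498) and 0.62 for IRF1 and MX2 (exact permutation p = 0.0738, adjusted 0.148). The rho values there were 0.75, 0.75 and 0.52, with adjusted exact permutation p of 0.0765, 0.0765 and 0.324. Leaving out the arrays farthest from the median of the first gene gave r of 0.66 for IRF1 and PSMB8 (without HK1 and HK3), 0.44 for MX2 and PSMB8 (without HC2 and HC4) and 0.66 for IRF1 and MX2 (without HK1 and HK3). Within the 7 normoxia arrays no pair passed, with r from -0.58 to 0.43 and exact permutation p from 0.174 to 0.94. These 4 sets of arrays share their samples, and each set was adjusted over its own 6 pairs.

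**Figure D3:**
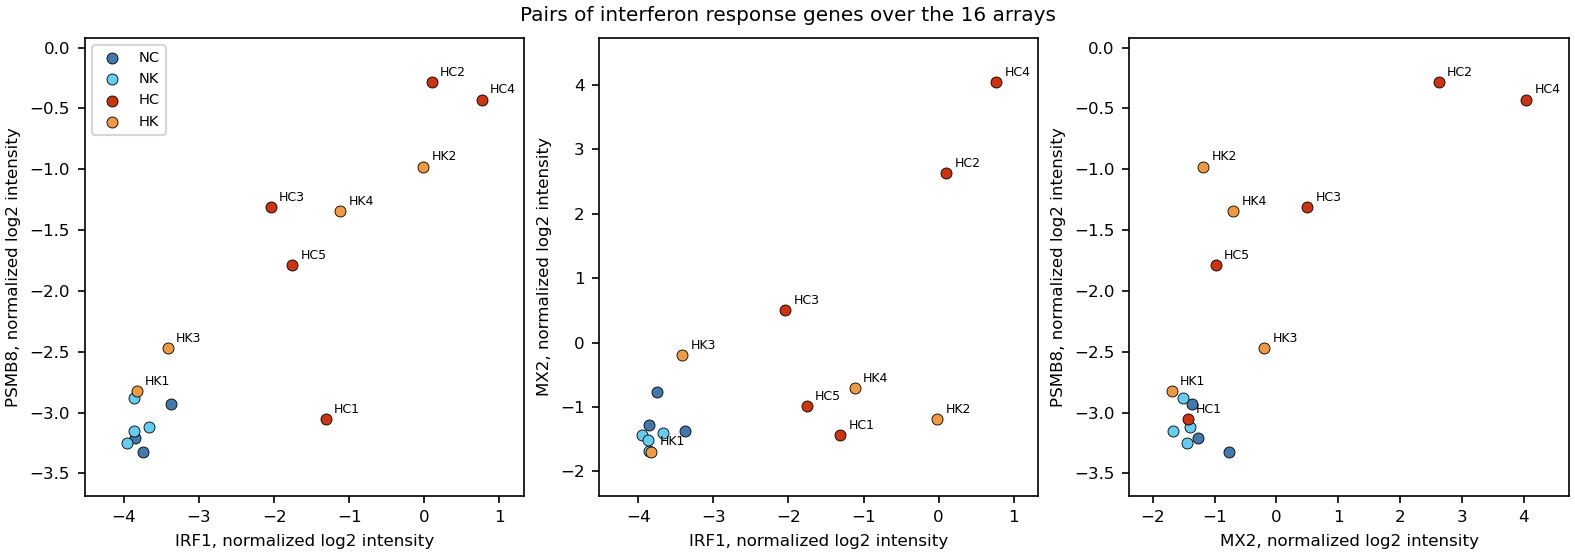
Normalized log2 intensity of 1 gene against another, for IRF1 and PSMB8, IRF1 and MX2, and MX2 and PSMB8. Each point is 1 of the 16 arrays, colored by group, with the hypoxia arrays labelled. HC1 departs from the line of IRF1 and PSMB8, HK2 is high for IRF1 and PSMB8 but low for MX2, and HC2 and HC4 stand at the upper end of all 3 panels.

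Each member was then set against the other 756 genes with a named probe among those tested, and the 5 with the highest Pearson r over the 16 arrays are given as a description, with no test. IRF1 was most like CXCL10 (r = 0.958), a chemokine that draws T cells, then RTP4 (0.912), an interferon-induced chaperone, TLR4 (0.901), the receptor for lipopolysaccharide, PSMB8 (0.899) and the T cell antigen CD5 (0.888). PSMB8 was most like its immunoproteasome partner PSME2 (r = 0.968), a subunit of the proteasome activator, and B2M (0.938), the light chain of class I molecules. Next came IL1RN (0.922), the interleukin 1 receptor antagonist, which was well above background on only 8 arrays, the fructose transporter SLC2A5 (0.905) and IRF1 (0.899).

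MX2 had other neighbours. It was most like ISG15 (r = 0.936), a ubiquitin-like protein induced by type I interferon, MX1 (0.927), its paralog and neighbour in the genome, the costimulatory receptor CD40 (0.901), the survival factor MCL1 (0.887) and the B cell factor TNFSF13B (0.876). PSMB8 came 13th and IRF1 19th in the likeness to MX2, while MX2 came 36th for IRF1 and 28th for PSMB8. As deviations from group means the r values of MX2 with ISG15 and MX1 were both 0.93, that of IRF1 with CXCL10 was 0.91 and that of PSMB8 with PSME2 was 0.95. The 5 genes most like IRF3 had lower r, from 0.595 to 0.691. In order they were FGF10, SLAN, BBC1, CD81 and CP, and CP was well above background on only 7 arrays. IRF1, MX2 and PSMB8 came 221st, 255th and 122nd for IRF3.

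The arrays of these neighbours can be read beside the members. ISG15 read 1.72, 0.56 and -0.02 in NC, between -0.58 and -0.36 in NK, and -0.97, 3.54, 1.37, 5.84 and 1.04 in HC. In HK it read -0.76 in HK1, 1.11 in HK3 and 0.79 in HK4, and HK2 lay above these and below NC1. HC2 and HC4 lay above every normoxia array, as for MX2, while HC3 lay below NC1 and HC1 below every normoxia array. For MX2 HK2 also lay within the normoxia range. CXCL10 read from -4.50 to -1.13 over the normoxia arrays, 0.36, 4.20, -0.73, 5.34 and 2.00 in HC, and -3.81, 3.51, -1.06 and 3.30 in HK. As for IRF1, all 5 HC arrays lay above the normoxia range and HK2 and HK4 were the high HK arrays. HK3 lay just above the normoxia range for CXCL10, at -1.06 against -1.13, and within it for IRF1.

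**Figure D4:**
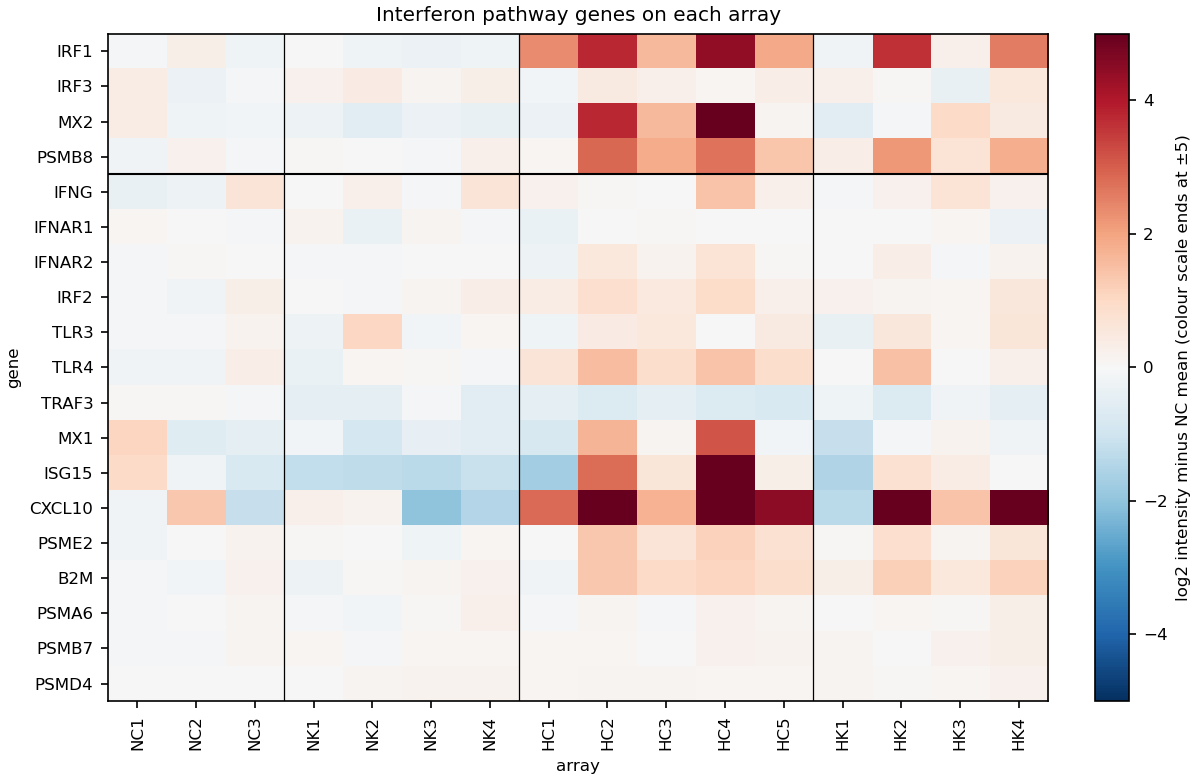
Log2 intensity minus the NC mean (color, scale ending at ±5) of the 4 members (above the line, IRF3 by its probe with the highest mean) and of the other tested genes of the interferon and proteasome lists, on each of the 16 arrays. MX2, MX1 and ISG15 are strongest in HC2 and HC4, CXCL10 is high in HC1, HC2, HC4, HC5, HK2 and HK4, and the constitutive proteasome genes PSMA6, PSMB7 and PSMD4 stay pale on every array.

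The rest of the pathway was sparsely named on this array, with 15 of the 146 genes of 7 lists tested, each by its probe with the highest mean. Of the interferon ligands only IFNG was tested, and its HC-NC difference was 0.39 ± 0.32 and did not pass. Of the receptors and signal transducers 2 of 13 were tested and neither passed in any of the 6 comparisons. IFNAR1 and IFNAR2, the type I interferon receptor chains, read -0.08 and 0.24 in HC-NC. The list's median there was 0.08, against -0.03 over all probes tested.

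Of the other interferon regulatory factors 1 of 6 was tested. This gene, IRF2, which binds the same DNA element as IRF1 and often opposes it, was 0.57 ± 0.18 higher in HC-NC (adjusted p = 0.232). Upstream of IRF3, 3 of 17 sensors and adaptors were tested. TLR4 was 1.07 ± 0.31 higher in HC-NC (adjusted p = 0.204) and lower in HK-HC, at -0.64 ± 0.29 (adjusted p = 0.969). TRAF3, an adaptor between these sensors and the kinases of IRF3, was lower in HC-NC, at -0.61 ± 0.13 (adjusted p = 0.14), and in NK-NC, at -0.37 ± 0.14. TLR3, the sensor of double-stranded RNA, read 0.24 in HC-NC and did not pass.

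Of 53 other interferon-stimulated genes 3 were tested, and 1 passed in HC-NC. CXCL10 was 4.70 ± 1.64 higher (adjusted p = 0.293), and 3.72 ± 1.58 higher in HK-NK (adjusted p = 0.932). ISG15 read 1.41 ± 1.09 and MX1 0.81 ± 0.71 in HC-NC, and neither passed. In HK-HC none of the 3 passed. The median difference over the list was 1.41 without ketamine between the oxygen groups and -1.50 for ketamine under hypoxia, against -0.03 and 0.02 over all probes tested.

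Around PSMB8, 2 of 13 genes of class I antigen processing and the immunoproteasome were tested, and both rose in HC-NC. PSME2 was 0.78 ± 0.26 higher (adjusted p = 0.266) and B2M 0.81 ± 0.29 (adjusted p = 0.305), and B2M also passed in HK-NK at 0.77 ± 0.28 (adjusted p = 0.9). Of the constitutive proteasome 3 of 33 genes were tested (PSMA6, PSMB7 and PSMD4) and none passed in any of the 6 comparisons, with HC-NC differences of 0.07, 0.12 and 0.11. None of the 15 genes reached an adjusted p under 0.05 in any comparison.

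Markers of cell types were read beside these genes, and their part in the results was not tested. Of all probes tested, 4.54% passed as higher and 6.27% as lower in HC-NC. In HK-NK 2.81% passed as higher, and in HK-HC 1.87% as lower. Averaged over ketamine the shares were 5.69% higher and 6.75% lower. No marker of the choroid plexus (4 tested), of meninges and mesenchyme (2 tested) or of red blood cells (1 tested) passed in any comparison. The summed level of the choroid plexus markers varied widely between arrays of 1 group. In units of the 75th percentile it was 1.5 to 85.4 in NC, 0.991 to 71.6 in NK, 0.93 to 78.1 in HC and 1.59 to 50.9 in HK. TTR, 1 of these markers, read 0.12 ± 1.98 in HC-NC, so the comparisons could miss large differences in it. Of 18 microglia and macrophage markers 5 were tested, and 3 were higher in HC-NC, namely CD14 (1.97 ± 0.45), FCGR1A (1.13 ± 0.44) and FCER1G (0.72 ± 0.27). ITGAM passed averaged over ketamine (0.59 ± 0.25). CD14 and FCGR1A were also lower in HK-HC (-1.10 and -0.996). The summed level of the 5, in units of the 75th percentile, was 0.505 to 0.647 over the normoxia arrays, 0.837 to 2.12 in HC and 0.578 to 1.03 in HK. Of 13 neutrophil markers LTF and CATHL3 were tested, and both passed in HK-NK (1.98 and 4.42) and neither in HC-NC. Their summed level was 0.054 to 0.287 in normoxia, 0.278 to 5.79 in HC and 0.295 to 7.20 in HK. Of 15 lymphocyte markers 5 were tested, and CD5 alone passed in HC-NC (1.37 ± 0.46), with CD3E and CD3D at 0.55 and 0.50. In whole tissue, more cells of a type and more RNA per cell cannot be told apart. Of 11 endothelial markers 4 were tested. SELP, the adhesion molecule P-selectin, was higher in HC-NC (4.15 ± 0.98) and in HK-NK (2.52 ± 0.95). KDR, a receptor of vascular endothelial growth factor, read -0.46 in HC-NC and was lower averaged over ketamine (-0.42 ± 0.15), and PECAM1 and FLT1 read 0.09 and 0.10 in HC-NC. Of 7 astrocyte markers 3 were tested, and GJA1, a gap junction protein, was higher in HC-NC (0.46 ± 0.21), with GFAP at 0.52 and AQP4 at 0.08. Of 15 neuron markers 5 were tested, and the glutamate receptor genes GRIN1 (-1.02 ± 0.40) and GRIA1 (-0.66 ± 0.26) were lower in HC-NC, where SST read -0.66, NEUROD1 -1.64 and NPY 0.26. The summed level of the 5 was 33.4 to 40 in NC, 32.1 to 45.2 in NK, 7.23 to 45.5 in HC and 41.4 to 46.3 in HK. SST weighs most in this sum, with a mean log2 intensity of 4.66, against 2.28 for NPY, the next brightest. No marker named here reached an adjusted p under 0.05.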

How the data were processed

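RNA of 16 fetal hippocampi (RNA integrity numbers 7.7 to 9.2 per the labels) was hybridised to 1-color Agilent ovine arrays on 2 slides of 8, each slide holding all 4 groups. The authors deposited the scanner output, whose processed intensity per spot was background-subtracted within the array by Feature Extraction (per the file headers), and a table of log2 values whose column medians (8.684 to 8.6897) nearly coincide and which follow the order of the median intensity minus local background within each array. Any offset in that table is not given in the sources used here. The submitters' processing notes name R 2.15.1 and limma. The version of Feature Extraction in the headers differs from that in the methods.

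Here log2 of the deposited intensity was taken and the 75th percentile of each array subtracted, spots marked as outliers were dropped and spots of 1 probe averaged. The test ran on the 12543 of 15008 probes that at least 3 arrays showed well above background, in 1 fit of the 4 groups with limma 3.58.1 in R 4.3.3, two-sided, with Benjamini-Hochberg adjustment over all of them. The steps were tested on simulated data. Genes were named from the array annotation and RefSeq accessions (1437 probes, 9.57%), so a list covers few of its genes. Between 76.7% and 82.6% of spots per array were well above background, the 75th percentile intensity was 881.5 to 1199, and precision is limited by how few arrays there are.

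Exact permutation tests compared single genes by their probe with the highest mean, and relations used 100000 permutations or all orders. The text covers all member probes, the 5 genes most like each member, and the genes of the fixed lists past the criterion or needed to describe a list. The members and lists were chosen with earlier results of these data known. Alternatives were other background correction (normexp, offset 50), scaling, filters, blocks, weights, priors and leaving out each array. Same-numbered NC and NK arrays deviated together (r 0.205 to 0.375 over probes, 3 pairs), and so did NC3 and NK4 (0.23). Same-numbered arrays also share a slide and a row on it, and the labels give no pairing. HC and HK pairs of 1 number deviated together in 3 of 4 (0.071 to 0.393). Same-numbered arrays of different oxygen groups share the slide and row too. Their r was 0.04 to 0.13 for NC and HC and -0.012 to 0.076 for NC and HK. It was -0.043 to 0.149 for NK and HC and 0.032 to 0.259 for NK and HK. Whether a pairing of fetuses or a shared position lies behind these values was not tested. The hypothalamus was not analysed here, and some genes of the lists are not reported here.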

Additional observations from a re-analysis of the deposited data

Results flagged for a closer look

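No member probe had an array that stood apart from its group by Dixon's test over the 15 groups of 4 or 5 arrays searched, where chance flags about 1 in 20. For 2 genes of the lists the effect of ketamine differed between normoxia and hypoxia at an unadjusted p under 0.05, out of 51 probes and genes tested for it (3.92%), a share close to the 3.44% of all probes tested. TRAF3, the adaptor upstream of IRF3, had an interaction of 0.603, with -0.37 in NK-NC and 0.23 in HK-HC. FCGR1A, the macrophage Fc receptor, had an interaction of -1.31, with 0.31 in NK-NC and -0.996 in HK-HC. Both had an adjusted p of 1 over all probes, and the cause was not tested.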

How the results depend on the processing

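The direction of every member that passed the criterion held under all alternatives run, and IRF1 and PSMB8 in HC-NC and averaged over ketamine kept their calls under all of them. In HK-HC the count of member probes past the criterion, 1, became 0 with the deposited values, with the slide as a block and with only the compared groups in the fit, 3 with array weights, and 0 to 2 when 1 array was left out. In HK-NK the count of 2 became 0 with normexp and with the deposited values, 1 with array weights and 1 with only the compared groups, and ran from 0 to 2 when 1 array was left out. With the replicate number as a block, which drops HC5, the lone array with its number, 2 passed in HK-HC (MX2 and IRF1, the latter at -1.47), and MX2 averaged over ketamine read 1.41 and passed. With the replicate block within each oxygen group, chosen after seeing the data, 3 passed in HK-HC and 1 (IRF1, -1.31) in the interaction. That fit changed no call in NK-NC. The cause was not tested. Normexp moved the median of all probes in HC-NC to 0.344 and in NK-NC to 0.283, and the members' differences are to be read against those shifts. It called 311 probes higher and 274 lower in HC-NC, where the 75th percentile scaling called 570 and 786. On the deposited values the IRF1 and PSMB8 differences in HC-NC were 1.33 and 0.77, against 2.81 and 1.78. Of the permutation tests of single genes 6 lost p under 0.05 and 1 gained it over 64 alternatives, and of the within-group relations 12 lost it and 3 gained it over 132.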
